A study of Mus musculus with 8 samples.

Results

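The genes described here are 9 receptors that hold B cells in the bone marrow or guide them out of it. They were chosen by symbol as a fixed list of chemokine receptors (*Cxcr4*, *Cxcr5*, *Ccr7* and *Ccr6*), receptors for lipids (*S1pr1*, *Gpr183* and *Cnr2*) and integrin subunits (*Itga4* and *Itgb7*). All 9 were found among the 54532 genes of the count table, and all 9 had enough reads to be tested among 15305 genes. RNA came from bone marrow B cells of ovariectomized mice (OVX) and of sham-operated mice (Sham), each represented by 3 libraries. Ovariectomy is a surgical model of estrogen deficiency. No genetic alteration is named for these mice, and the labels of these libraries state neither strain nor age, nor whether animals were pooled. B cells were pulled from marrow with magnetic beads and both groups were prepared in the same way. Such a fraction holds every stage of B cell development together, from progenitors to recirculating mature cells.

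A B cell that matures in the marrow changes its set of receptors. CXCR4 binds CXCL12, a chemokine made by marrow stroma, and this pull together with the adhesion of the integrin α4β1 to VCAM1 holds early B cells in the niche. Maturing cells gain S1PR1 and follow sphingosine-1-phosphate into the blood. CXCR5, CCR7, CCR6 and GPR183 then guide them within lymphoid tissue toward CXCL13, CCL19 and CCL21, CCL20 and oxysterols. The integrin α4β7 carries lymphocytes to the gut by binding MAdCAM-1, and CB2, encoded by *Cnr2*, binds endocannabinoids and helps to retain immature B cells in the marrow sinusoids.

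In RefSeq annotation of GRCm38.p6, the assembly called mm10 in the submitters' processing notes, *Cxcr4* lies at chr1:128588199-128592299, *Cxcr5* at chr9:44511787-44526444, *Ccr7* at chr11:99144199-99155077 and *Ccr6* at chr17:8236041-8258519. *S1pr1* lies at chr3:115710433-115715055, *Gpr183* at chr14:121952331-121965193 and *Cnr2* at chr4:135895189-135920219. *Itga4* lies at chr2:79255426-79333114 and *Itgb7* at chr15:102215994-102233405. Because the study concerns the transcription factor HIF-1α, the start regions were searched for its core motif, ACGTG or GCGTG, on both strands. A start region was at hand for 6 of the 9 genes, with 8 windows of 300 bases each that end 50 bases after the start. ACGTG (or CACGT on the other strand) was found in 2 of the 8 windows, those of *Gpr183* and of the second listed start of *Ccr6*, against 19.6% of all 32851 windows. GCGTG (or CACGC) was found in 2, those of *Cxcr4* and *Itga4*, against 32.4% of all windows. No window of the 8 held both motifs. The palindromic estrogen response element, GGTCA and TGACC separated by any 3 bases, was found in 0 of the 8 windows and in 0.07% of all windows. The 250 bases before the start are shown for the 3 genes with a match upstream, each on the strand of its gene and with the match in capitals. The *Cxcr4* sequence is chr1:128592300-128592549 (minus strand) with the match 39 bases before the start. The *Gpr183* sequence is chr14:121965194-121965443 (minus strand) with the match 40 bases before it. The *Ccr6* sequence is chr17:8242276-8242525 (plus strand) with the match 212 bases before it. A match is a description of these letters and no measurement of binding.
Cxcr4: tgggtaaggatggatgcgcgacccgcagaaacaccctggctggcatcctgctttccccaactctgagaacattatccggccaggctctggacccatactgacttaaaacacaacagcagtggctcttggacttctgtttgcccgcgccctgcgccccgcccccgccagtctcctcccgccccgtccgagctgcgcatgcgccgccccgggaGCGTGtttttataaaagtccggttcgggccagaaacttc
Gpr183: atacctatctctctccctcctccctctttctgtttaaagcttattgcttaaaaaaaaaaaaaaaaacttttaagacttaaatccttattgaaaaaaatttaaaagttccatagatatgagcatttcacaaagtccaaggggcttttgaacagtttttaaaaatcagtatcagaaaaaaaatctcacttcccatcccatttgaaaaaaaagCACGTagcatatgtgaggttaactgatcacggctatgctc
Ccr6: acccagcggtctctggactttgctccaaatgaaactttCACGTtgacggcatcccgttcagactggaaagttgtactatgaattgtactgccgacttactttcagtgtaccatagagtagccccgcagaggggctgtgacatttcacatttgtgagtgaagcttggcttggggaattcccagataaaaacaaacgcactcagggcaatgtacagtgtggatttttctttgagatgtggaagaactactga

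The libraries held between 23838775 and 33136701 counted reads, and each member had between 205 and 21095 reads per library. As a check of the labelled cell type, 12 general B cell genes, *Cd79a* and *Cd79b* among them, had a summed level between 10253 and 12151 CPM (reads scaled to a common depth using TMM factors). Sham replicate 2 stood apart in the summed levels of B cell stage genes. Its 10 mature B genes summed to 4173 CPM, against 2335 to 2749 CPM in the other 5 libraries. Its 13 pro-B and pre-B genes summed to 1706 CPM, against 2126 to 3333 CPM. *Rag1* held the largest part of that sum, at 581 CPM against 975 to 1516 CPM elsewhere. Sham replicate 3 held the most neutrophil transcripts, 9595 CPM over 18 genes, against 1145 to 4154 CPM elsewhere. Between the groups, neutrophil genes averaged 2170 CPM in OVX and 5215 CPM in Sham, and monocyte and macrophage genes 989 and 1566 CPM. Such marker sums could not be tested usefully, since an exact permutation test of 3 libraries against 3 allows no p below 0.1, and the lowest p over the 11 marker lists was 0.2. In such bulk RNA, fewer cells of a type and less RNA per cell cannot be told apart.

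Ovariectomy was not followed by a detectable change in any of the 9 receptors. By the quasi-likelihood test of edgeR, with p-values adjusted by Benjamini-Hochberg over all genes, 0 of the 9 were called, with adjusted p-values from 0.811 to 0.967, and 0% of all genes tested were called. None of the 9 (0 receptors) had an unadjusted p-value under 0.05 with edgeR, against 574 genes or 3.75% of all genes. DESeq2 gave 1 receptor, *Cxcr4*, among 755 of 27412 genes tested, and limma-voom gave 0 receptors among 594 of 15305. DESeq2 and limma-voom also called 0 genes. *Cxcr4* and *Ccr7* had positive log2 fold changes (2 of 9, where 48.2% of all genes tested were above 0) and the other 7 negative ones, with a median of -0.13 against -0.0081 for all genes tested. OVX and Sham libraries overlapped for all 9 receptors, where 8.44% of all genes tested had groups that did not overlap. Sham replicate 2 lay at an end of the range for each receptor. It held the highest level of 8 of the 9 and the lowest level of the remaining receptor, *Cxcr4*. Leaving this library out therefore raises the log2 fold change of those 8 and lowers that of *Cxcr4* by construction. Of all genes tested, 25.7% were highest and 28.8% lowest in that library. Also highest there were 8 of 10 mature B genes, 7 of 12 monocyte and macrophage genes and 7 of 10 immediate early genes.

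**Figure D1:**
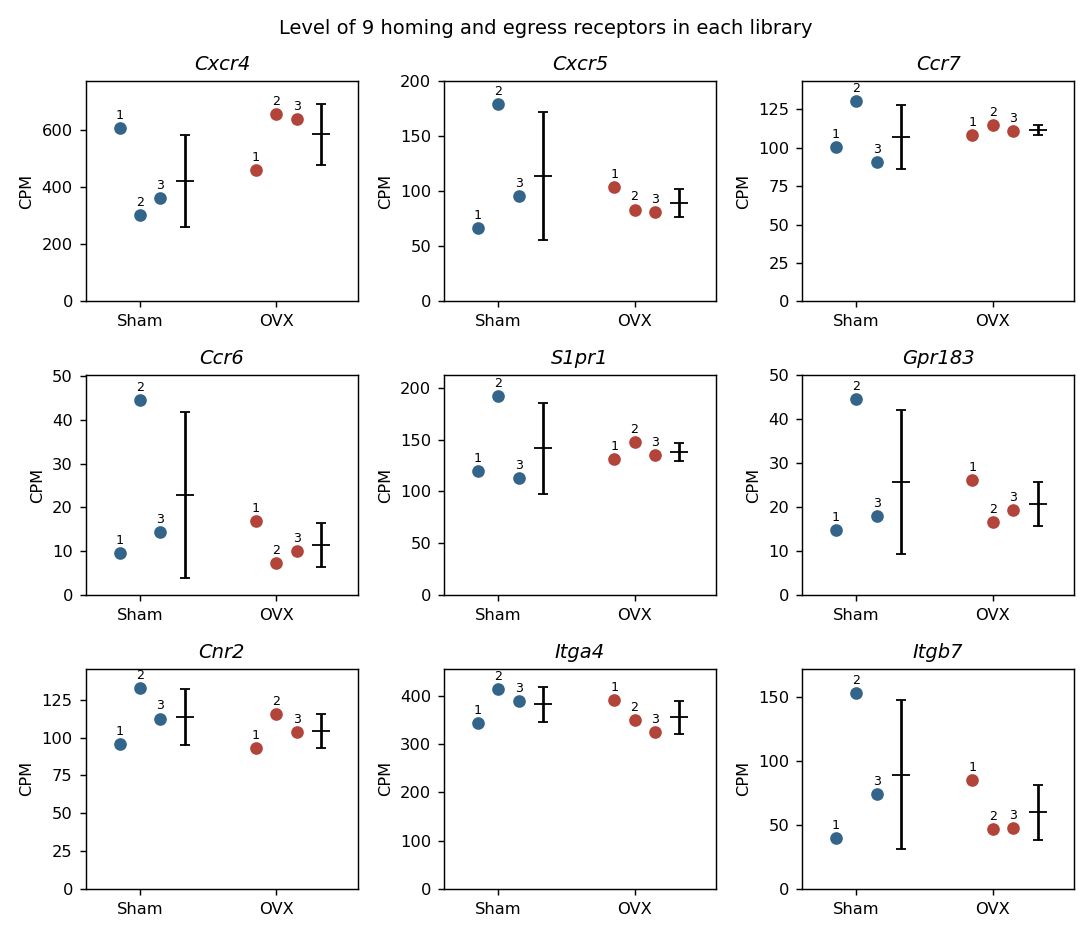
Level of each receptor in CPM (vertical axes, from 0) in the 3 Sham (blue) and 3 OVX (red) libraries, with the replicate number above each point and the group mean ± SD in black. Sham replicate 2 is the highest point for 8 receptors and the lowest, at 302 CPM, for Cxcr4.

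*Cxcr4* (ENSMUSG00000045382), the retention receptor, was measured at 460, 655 and 639 CPM in OVX replicates 1, 2 and 3. In Sham replicates 1, 2 and 3 it was at 605, 302 and 361 CPM. Sham replicates 2 and 3 lay below every OVX library, while Sham replicate 1 lay within the OVX range. The group levels were 585 ± 108 CPM in OVX and 423 ± 161 CPM in Sham (mean ± SD of 3 libraries each). On the log2 scale OVX exceeded Sham by 0.47 (standard error 0.26, 95% interval -0.15 to 1.09, edgeR quasi-likelihood adjusted p = 0.811). It was 0.82 without Sham replicate 1, with an unadjusted p-value of 0.0028 and an edgeR quasi-likelihood adjusted p = 0.273, and 0.27 without Sham replicate 2. Adding a neutrophil covariate to the model gave 0.22. *Cxcr4* stayed positive and *Ccr6* stayed negative in all 16 alternative settings, while each of the other 7 changed sign in at least 1. The summed pro-B and pre-B genes followed the same order at the low end, with Sham replicates 2 and 3 lowest. The part of B cell stage in the *Cxcr4* value was not tested.

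*Cxcr5* (ENSMUSG00000047880), which directs B cells into follicles, was measured at 104, 83.4 and 81.0 CPM in OVX replicates 1, 2 and 3 and at 66.7, 179 and 95.8 CPM in Sham replicates 1, 2 and 3. Its lowest and its highest library were both Sham. The log2 fold change was -0.35 (standard error 0.33, 95% interval -1.12 to 0.42), and 0.14 without Sham replicate 2. *Ccr6* (ENSMUSG00000040899), the CCL20 receptor of mature B cells, had the fewest reads of the list, 205 to 1263 per library. Its level was 16.9, 7.23 and 10.1 CPM in OVX replicates 1, 2 and 3 and 9.54, 44.5 and 14.5 CPM in Sham replicates 1, 2 and 3. Sham replicate 2 alone separated the group means, as the other 5 libraries lay between 7.23 and 16.9 CPM. *Ccr6* had the lowest log2 fold change of the 9, -1.01 (standard error 0.58, 95% interval -2.38 to 0.36), and without Sham replicate 2 it was -0.082.

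*Ccr7* (ENSMUSG00000037944), which leads lymphocytes to CCL19 and CCL21, was steadier. It was measured at 109, 115 and 111 CPM in OVX replicates 1, 2 and 3 and at 100.3, 131 and 90.6 CPM in Sham replicates 1, 2 and 3. The 3 OVX libraries lay close together, with an SD of 3.30 CPM against 20.9 CPM in Sham, and within the Sham range. The log2 fold change was 0.057 (standard error 0.13, 95% interval -0.25 to 0.36). Without Sham replicate 2 it was 0.22 (standard error 0.069), with an unadjusted p-value of 0.0161 and an edgeR quasi-likelihood adjusted p = 0.999.

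*S1pr1* (ENSMUSG00000045092), the egress receptor, was measured at 131, 148 and 135 CPM in OVX replicates 1, 2 and 3 and at 120, 192 and 113 CPM in Sham replicates 1, 2 and 3. The group levels were 138 ± 8.75 CPM in OVX and 141 ± 43.8 CPM in Sham (mean ± SD of 3 libraries each). Sham replicates 1 and 3 lay below every OVX library and Sham replicate 2 above every one. The log2 fold change was -0.035 (standard error 0.20, 95% interval -0.49 to 0.42). Without Sham replicate 2 it was 0.25 (standard error 0.074), with an unadjusted p-value of 0.0139 and an edgeR quasi-likelihood adjusted p = 0.999. That library was the highest for *S1pr1* and for *Ccr7*, so the values of both without it are a description. Without that library OVX lay above Sham for *S1pr1* and *Ccr7*, 2 of the 9 receptors, where 15.2% of all genes tested had groups that did not overlap, 7.63% with OVX higher and 7.6% with OVX lower, and 2.31% had an unadjusted p-value under 0.05.

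*Gpr183* (ENSMUSG00000051212), the oxysterol receptor also called EBI2, was measured at 26.2, 16.6 and 19.3 CPM in OVX replicates 1, 2 and 3 and at 14.8, 44.6 and 17.9 CPM in Sham replicates 1, 2 and 3. Its log2 fold change of -0.32 (standard error 0.41, 95% interval -1.29 to 0.65) became 0.34 without Sham replicate 2. *Cnr2* (ENSMUSG00000062585) was measured at 93.4, 116 and 104 CPM in OVX replicates 1, 2 and 3 and at 95.7, 133 and 113 CPM in Sham replicates 1, 2 and 3. The groups overlapped, with OVX replicate 1 below every Sham library and Sham replicate 2 above every OVX library. Its log2 fold change was -0.13 (standard error 0.13, 95% interval -0.44 to 0.18), and -0.0021 without Sham replicate 2.

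*Itga4* (ENSMUSG00000027009), the α4 subunit that pairs with either β1 or β7, varied least of the 9. It was measured at 392, 349 and 325 CPM in OVX replicates 1, 2 and 3 and at 344, 414 and 389 CPM in Sham replicates 1, 2 and 3, a range of 1.27-fold over the 6 libraries. Its log2 fold change was -0.10 (standard error 0.10, 95% interval -0.34 to 0.13). *Itgb7* (ENSMUSG00000001281), the β7 partner, was measured at 84.6, 46.5 and 47.8 CPM in OVX replicates 1, 2 and 3 and at 39.8, 153 and 74.1 CPM in Sham replicates 1, 2 and 3. It ranged 3.85-fold over the same libraries. Its log2 fold change was -0.58 (standard error 0.47, 95% interval -1.68 to 0.52), and 0.062 without Sham replicate 2. The 2 subunits of α4β7 thus varied unequally, and the reads of *Itgb7* per read of *Itga4* were 0.216, 0.133 and 0.147 in OVX replicates 1, 2 and 3 and 0.116, 0.369 and 0.191 in Sham replicates 1, 2 and 3.

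**Figure D2:**
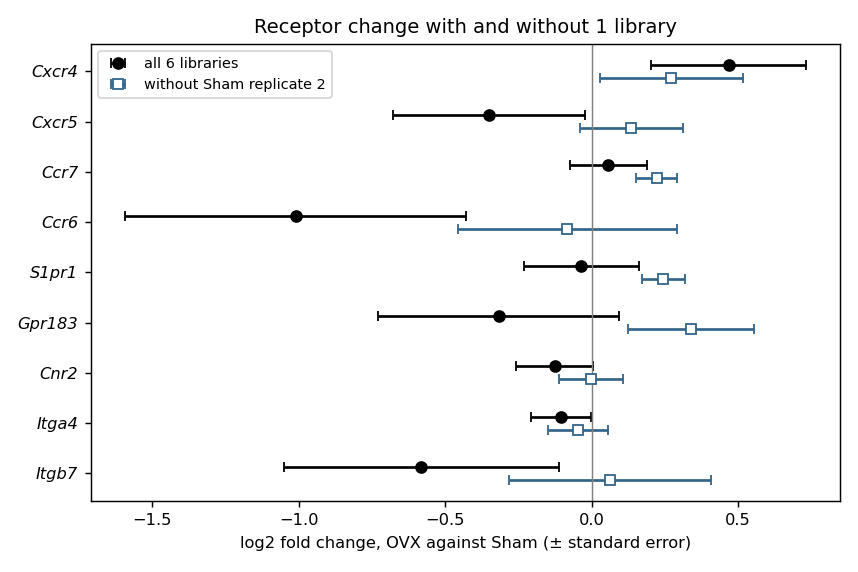
Log2 fold change of OVX against Sham (horizontal axis) for the 9 receptors, with bars of 1 standard error, for all 6 libraries (black circles) and without Sham replicate 2 (open squares). The number of receptors above 0 went from 2 to 6 when that library was left out, and Ccr6 moved from -1.01 to -0.082. That library was the highest for 8 receptors, so leaving it out raises their values by construction.

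Because Sham replicate 2 lay at an end of the range for each receptor, its receptors were set beside the stage genes as a description. Relative to the median of the other 5 libraries, Sham replicate 2 held 4.43 times the level of *Ccr6*, 3.20 times that of *Itgb7*, 2.49 times that of *Gpr183* and 2.15 times that of *Cxcr5*. These 4 exceeded the 1.63-fold of the summed mature B genes. *S1pr1* at 1.46-fold, *Cnr2* at 1.28-fold, *Ccr7* at 1.20-fold and *Itga4* at 1.19-fold lay below it. Single mature B genes ran from 1.05-fold for *Tnfrsf13c*, the BAFF receptor, to 2.55-fold for *Fcer2a*, which encodes CD23. *Cxcr4* stood at 0.498-fold, near the 0.537-fold of the summed pro-B and pre-B genes. Single pro-B and pre-B genes ran from 0.416-fold for *Rag2* to 1.30-fold for *Vpreb2*. Lists of other cell types were also higher there as sums. Dendritic cell genes were at 2.03-fold, stroma and endothelium genes at 1.88-fold and monocyte and macrophage genes at 1.85-fold. Of the 10 stroma and endothelium genes tested, however, 2 were highest and 4 lowest in Sham replicate 2, and single genes ran from 0.309-fold to 3.21-fold. Basophil, mast cell and eosinophil genes were at 1.38-fold, neutrophil genes at 1.34-fold, T and NK cell genes at 1.32-fold and plasma cell genes at 1.17-fold. Single plasma cell genes ran from 0.600-fold for *Sdc1* to 5.73-fold for *Jchain*. Immediate early genes were at 1.39-fold. Monocyte and macrophage genes held at most 0.196% of the counts of any library, T and NK cell genes at most 0.00862%, stroma and endothelium genes at most 0.00564% and dendritic cell genes at most 0.00453%, and 0 genes of these lists were without reads. Their part in the receptor levels was not tested. Of the 13 pro-B and pre-B genes, 6 were lowest and 1 highest in Sham replicate 2, and of the 10 mature B genes 8 were highest there.

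**Figure D3:**
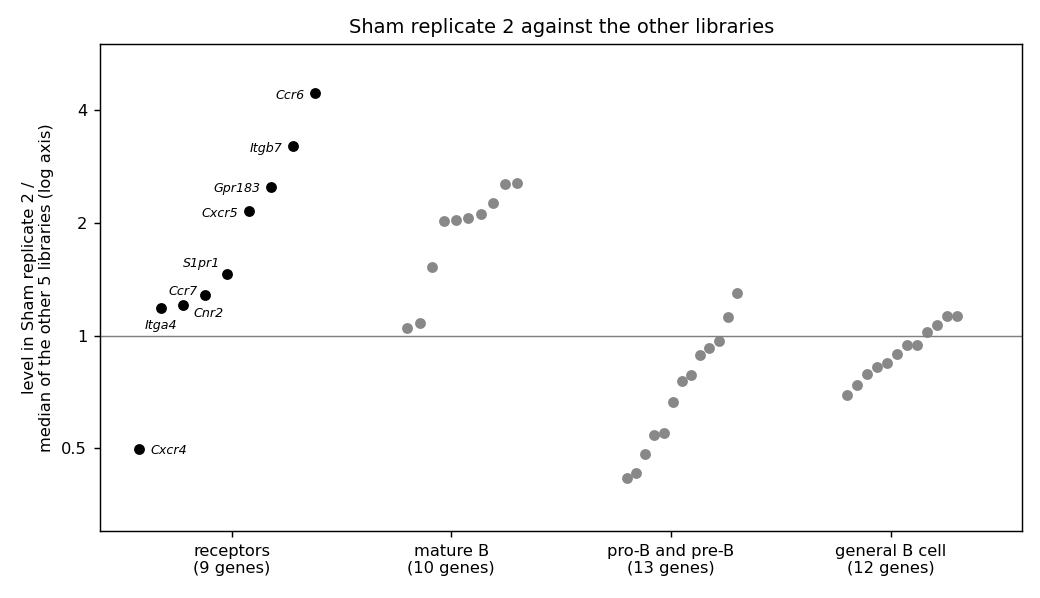
Level in Sham replicate 2 divided by the median of the other 5 libraries (vertical log axis) for the 9 receptors and for single genes of 3 marker lists, with 1 marking equality. Ccr6 reaches 4.43, Cxcr4 lies at 0.498, and single mature B genes run from 1.05 to 2.55.

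Ratios within a library do not depend on scaling between libraries. The reads of *Cxcr4* per read of *Cxcr5*, a measure of retention receptor against follicle receptor, were 4.43, 7.86 and 7.88 in OVX replicates 1, 2 and 3 and 9.08, 1.68 and 3.77 in Sham replicates 1, 2 and 3. The ratio was thus highest and lowest in Sham libraries, and the groups did not differ beyond their spread (exact permutation test of log2 ratios, two-sided, p = 0.4). The reads of *Cxcr4* per read of *S1pr1*, retention against egress, were 3.50, 4.43 and 4.74 in OVX replicates 1, 2 and 3 and 5.06, 1.57 and 3.20 in Sham replicates 1, 2 and 3 (same exact test, p = 0.5). The mature B reads per pro-B and pre-B read were 0.997, 0.794 and 0.825 in OVX replicates 1, 2 and 3 and 0.735, 2.45 and 1.20 in Sham replicates 1, 2 and 3. The libraries fell in the opposite order on this ratio and on *Cxcr4* per *Cxcr5*, except that OVX replicates 2 and 3 changed places with each other.

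Genes whose level followed each receptor most closely were sought among 10385 genes with a mean of at least 5 CPM, by the Pearson correlation of log2 CPM over the 6 libraries. With 6 libraries and this many genes, near-perfect likeness is common, so the names are a description. *Cxcr4* was most like *Cox7a2l*, *Tgfb1* and *Tnfaip8*, *Cxcr5* most like *Gimap8*, *Gpr174* and *Fchsd2*, and *S1pr1* most like *Satb1*, *Ppdpf* and *Gpr18*. *Ccr6* was most like *Zfc3h1*, *Aldh7a1* and *Trim7*, *Ccr7* most like *Nuak2*, *1700058P15Rik* and *Ngfr*, and *Gpr183* most like *mt-Nd2*, *Xkrx* and *Pxdc1*. *Cnr2* was most like *Yipf6*, *Sidt2* and *Tor4a*, *Itga4* most like *Rfx1*, *Junb* and *Myo1e*, and *Itgb7* most like *Gm8369*, *Fnbp4* and *Htra2*. All 27 coefficients were between 0.978 and 0.999.

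Most ligands of the receptors had few or no reads in this B cell fraction. Of 9 ligands and niche molecules, *Ccl19*, *Ccl21a*, *Ccl20* and *Madcam1* had 0 reads in each library, which allows up to 3 reads of each, and *Cxcl13* had 4 reads in OVX replicate 2 and 0 elsewhere. *Cxcl12*, the CXCR4 ligand, was measured at 21.1, 15.7 and 45.6 CPM in OVX replicates 1, 2 and 3 and at 18.7, 12.0 and 15.2 CPM in Sham replicates 1, 2 and 3. Only OVX replicate 3 stood clear of the other libraries, and the log2 difference of 0.84 (standard error 0.39, edgeR quasi-likelihood adjusted p = 0.811) fell to 0.26 when it was left out. *Vcam1*, the ligand of α4β1, was highest in Sham replicate 2 at 590 CPM and OVX replicate 3 at 485 CPM, against 132 to 278 CPM in the others. Stroma and endothelium genes were also highest as a sum in these 2 libraries, at 50.2 and 56.6 CPM over 13 genes against 25.0 to 33.8 CPM. Of the monocyte and macrophage genes, *Mrc1* was at 289 and 204 CPM there, against 59.1 to 122 CPM elsewhere. *C1qa* was at 222 and 187 CPM, against 55.6 to 103 CPM. *C1qb*, *C1qc*, *Csf1r*, *Cd68*, *Adgre1* and *Cd14* had the same 2 highest libraries, while *Ly6c2*, *Ccr2*, *Lyz2* and *F13a1* were highest in Sham replicate 3. The part of either list in *Cxcl12* and *Vcam1* was not tested. *Fn1*, fibronectin, was at -1.68 (standard error 0.95), and ran from -3.31 without OVX replicate 1 to -0.75 without Sham replicate 3. It was highest in that Sham library, at 130 CPM, the library richest in neutrophil transcripts, whose part was not tested. *Icam1* was at 0.075 (standard error 0.16), and ran from -0.077 without OVX replicate 3 to 0.23 without OVX replicate 1. *Vcam1* stood at -0.35 (standard error 0.63) on the log2 scale, and leaving out OVX replicate 3 gave -1.15 while leaving out Sham replicate 2 gave 0.35.

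Of 18 other homing receptors, 16 were tested, and 0 were called higher and 0 lower, with 3 positive and 13 negative log2 fold changes and a median of -0.26. *Cxcr3*, a receptor of activated lymphocytes, had 26, 31 and 30 reads in OVX replicates 1, 2 and 3 and 30, 100 and 52 in Sham replicates 1, 2 and 3. In CPM the highest OVX library was below the lowest Sham library, and the log2 fold change was -1.17 (standard error 0.40, edgeR quasi-likelihood adjusted p = 0.811), or -0.72 without Sham replicate 2. *Cxcr3* was the single gene of these 16 with groups that did not overlap, where 4.12% of all genes tested were so separated with OVX lower. *Ccr10*, a homing receptor of plasma cells, had at most 35 reads per library and was at -1.96 on the log2 scale (standard error 0.81). T and NK cell genes were highest in Sham replicates 2 and 3, at 77.4 and 86.0 CPM against 45.7 to 62.0 CPM. So was the sum of 10 plasma cell genes, at 1580 and 1574 CPM against 1164 to 1390 CPM. In that sum *Jchain* stood at 641 and 516 CPM against 71.3 to 257 CPM. Of the 10 plasma cell genes, 4 were highest in Sham replicate 2 and 3 lowest, namely *Sdc1*, *Irf4* and *Slamf7*. The part of T, NK and plasma cells in *Cxcr3* and *Ccr10* was not tested. *S1pr5* and *Cnr1*, with at most 32 and 2 reads, were not tested. *Selplg* and *Itgal*, a selectin ligand and the αL integrin subunit, had values of -0.21 (standard error 0.088) and -0.48 (standard error 0.21). Both were highest in Sham replicate 3, which also held the most neutrophil transcripts, and the part of neutrophils in them was not tested.

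The genes that carry or dampen receptor signals were nearly level. Of 23 such genes, all tested, 0 were called, with 13 positive and 10 negative log2 fold changes and a median of 0.0070. The 4 of lowest p-value were *Rgs1* at -0.93 (standard error 0.39), *Arrb1* at -0.53 (standard error 0.24), *Rgs16* at -0.43 (standard error 0.23) and *Rgs19* at -0.14 (standard error 0.074). *Rgs1*, *Rgs16* and *Rgs19* limit G protein signalling, and *Arrb1* encodes an arrestin that takes receptors off the surface. Of these 4, all highest in Sham replicate 2, only *Rgs16* had groups that did not overlap, with OVX lower. A further gene of the list without overlap was *Gna13*, chosen after its values were seen, a G protein subunit at 0.095 (standard error 0.060) with OVX higher. These were 2 of 23 genes, near the 8.44% of all genes tested. *Arrb1* was at -0.26 without Sham replicate 2 and *Rgs16* at -0.24 without OVX replicate 3.

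Of 17 regulators and lipid enzymes, 13 were tested and 0 were called, with 7 positive and 6 negative values and a median of 0.017. *Cd69*, whose product binds S1PR1 and removes it from the surface, had the lowest unadjusted p-value of the list. It was measured at 41.2, 38.8 and 41.0 CPM in OVX replicates 1, 2 and 3 and at 33.4, 33.3 and 34.4 CPM in Sham replicates 1, 2 and 3, so that the lowest OVX library exceeded the highest Sham library, as in 4.33% of all genes tested. The log2 fold change was 0.26 (standard error 0.073, unadjusted p-value 0.0085, edgeR quasi-likelihood adjusted p = 0.811), and it stayed between 0.25 and 0.29 with any 1 library left out. *Klf2*, a transcription factor that drives *S1pr1*, had a value of 0.18 (standard error 0.10) and *Foxo1*, a factor of early B cells, one of 0.21 (standard error 0.10). Without OVX replicate 2 these were 0.087 and 0.13, and without OVX replicate 1 *Klf2* was at 0.27. *Sphk1*, which makes sphingosine-1-phosphate, was at -1.51 (standard error 0.60) with 204 reads in Sham replicate 3 against 25 to 86 in the others and was at -0.71 without that library, the richest in neutrophil transcripts, and *Daglb*, an enzyme of endocannabinoid synthesis, was at -0.41 (standard error 0.16) with each OVX library below each Sham library, as in 4.12% of all genes tested. *Ch25h*, *Cyp7b1* and *Hsd3b7*, the enzymes that make and clear the oxysterol ligands of GPR183, reached no more than 2, 2 and 5 reads in any library.

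**Figure D4:**
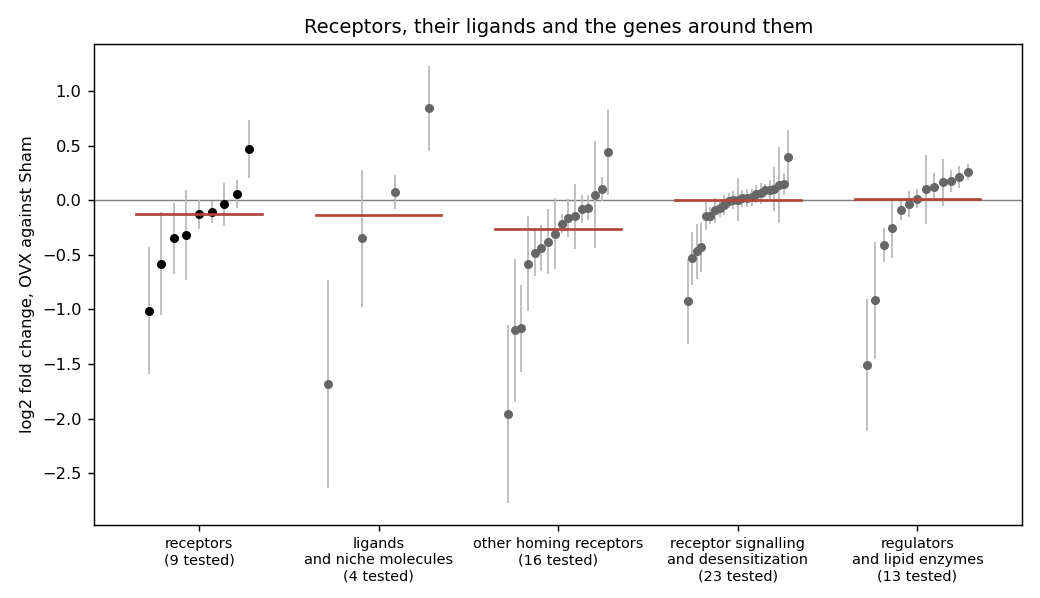
Log2 fold change of OVX against Sham (vertical axis) for the tested genes of each list, with bars of 1 standard error and the list's median as a red line. The medians were -0.13 for the receptors, -0.14 for ligands and niche molecules, -0.26 for other homing receptors, 0.0070 for signalling genes and 0.017 for regulators and lipid enzymes.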

How the data were processed

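RNA of bone marrow B cells was sequenced in 3 OVX and 3 Sham libraries. For each library the authors deposited unnormalized read counts by Ensembl identifier. The submitters' processing notes name CASAVA, Bowtie 0.12.2 and mm10, and the counting tool, annotation and strand setting are not given in the sources used here, so reads of overlapping genes could not be told apart. Symbols were matched to 54409 of 54532 identifiers. The ChIP-seq samples were not analysed here.

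The software was edgeR 4.0.16, DESeq2 1.42.0 and limma 3.58.1 under R 4.3.3. After filterByExpr and TMM scaling, the unblocked quasi-likelihood test of edgeR set OVX against Sham, with genes called at an adjusted p-value under 0.05 over all genes tested. The standard error is the log2 fold change divided by the square root of F. All 15 pairs of libraries differed by more than sampling noise, with a chi-square per gene of at least 9.28. The study's captions give 3 per group, and the labels do not say whether each library was a separate mouse or a pool, so p-values measure the spread between libraries, which may be partly technical. Levels were not compared between genes, as transcript lengths were not used.

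The receptors and all gene lists were chosen with earlier results of these data known. The genes named are the 9 receptors, the 4 of lowest p-value in each of the 4 pathway lists with *Cxcl12*, *Klf2*, *Foxo1* and *Cd69*, untested ligands, the 3 genes most like each receptor, and markers beside a result. *Gna13* and the untested genes outside the ligand list were added after their values were seen. The plasma cell, immediate early, and basophil, mast cell and eosinophil lists were among the 11 marker lists, and their summed levels in OVX and Sham overlapped (two-sided exact permutation test, p = 0.3, 0.6 and 0.3). The test was tried on simulated counts with known changes, the outcome of which is not given here. The alternatives were DESeq2, limma-voom, library size only, DESeq2 size factors, scaling on general or mature B genes, no filter, a mean of at least 10 counts, each library left out, the replicate block, and the neutrophil share as a covariate.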

Additional observations from a re-analysis of the deposited data

How the results depend on the processing

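No receptor was called in any of the 16 alternatives. Their lowest adjusted p-value was 0.273 (edgeR quasi-likelihood), reached when Sham replicate 1 was left out. There *Cxcr4*, *Cxcr5*, *Ccr6* and *Itgb7* had an unadjusted p-value under 0.05, among 2698 of 16051 genes tested. *Cxcr4* was also under 0.05 with DESeq2 (p-value 0.042) and with edgeR without a filter (0.039). *Ccr6* was so without a filter (0.039) and with scaling on mature B genes (0.046), and *Ccr7* and *S1pr1* without Sham replicate 2. Scaling on mature B genes put *Ccr6* at -0.65 (standard error 0.33), nearer 0 than the -1.01 (standard error 0.58) of the main fit. Over all genes, those under 0.05 were 755 of 27412 with DESeq2 and 1269 of 27416 without a filter. They were 527 of 15305 with scaling on mature B genes and 360 of 15609 without Sham replicate 2. The median of the receptors ran from -0.24 to 0.14 with 1 library left out, and was 0.14 without Sham replicate 2. Of 144 receptor values, 13 changed sign. With 1 library left out, *Cxcr5* ran from -0.62 to 0.14, *Ccr7* from -0.059 to 0.22, *S1pr1* from -0.18 to 0.25, *Gpr183* from -0.60 to 0.34 and *Itgb7* from -0.94 to 0.062, the upper value being that without Sham replicate 2 for each. *Cxcr4* ran from 0.27 without Sham replicate 2 to 0.82 without Sham replicate 1, and *Ccr6* from -1.40 without OVX replicate 1 to -0.082 without Sham replicate 2. Scaling on mature B genes, which moved the median of all genes by 0.11, put *S1pr1* at 0.15, *Cnr2* at 0.021 and *Itga4* at 0.024. Scaling on general B cell genes, which moved it by -0.10, put *Ccr7* at -0.051, and the neutrophil covariate put it at -0.065 and *Cxcr4* at 0.22, the lowest *Cxcr4* value. *S1pr1* was at 0.0045 with limma-voom and 0.0057 with the replicate block.

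Over all genes, 0 were called except with scaling on mature B genes, which called 64, 4 higher and 60 lower. In that fit the called *Mpo* was at -1.49 (standard error 0.33), against -1.59 (standard error 0.78) in the main fit. The called *Jchain* was at -1.28 (standard error 0.34), against -1.55 (standard error 0.68). For these 2 genes the call thus came with a smaller standard error and not with a larger change. The genes with an unadjusted p-value under 0.05 numbered 574 of 15305 tested, and 1269 of 27416 without a filter. They were 206 of 15305 with the replicate block and 185 of 15305 with the neutrophil covariate. With 1 library left out they ran from 233 of 15737 without OVX replicate 2 to 2698 of 16051 without Sham replicate 1. The 574 split into 225 higher and 349 lower, against 62 and 633 with general B cell genes and 89 and 438 with mature B genes. The causes were not tested. Replicate numbers did not pair the libraries, with correlations of -0.410, -0.189 and -0.279 between deviations of like-numbered libraries across genes, which are no independent replicates. With 3 libraries per group, the 95% intervals still allow changes such as 1.09 for *Cxcr4* and -2.38 for *Ccr6* on the log2 scale.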
